A study of Homo sapiens with 16 samples.

Results

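The replication-dependent histone genes on 6p22 were examined through every listed peak that overlapped chromosome 6 at 26.00 to 26.30, 27.05 to 27.15 or 27.75 to 27.90 Mb (hg19), called here the first, the second and the third window. These windows were chosen by position and because the first holds a top-ranked acetylated cluster in both lines, so their H3K27ac values are a description and carry no test. Of 114213 peaks in the 6 deposited lists, 119 were members, 85 of them H3K27ac domains, 34 SMC1 peaks and 0 BORIS peaks. The data came from 2 established Ewing sarcoma cell lines, TC-32, labelled as from diagnosis, and TC-71, labelled as from after chemotherapy. Chromatin of each line was precipitated with antibodies against BORIS, SMC1 or H3K27ac, with input chromatin alongside, in 2 samples per line and antibody (16 samples in all). Both samples of a line and antibody stand behind 1 peak list, with that line's input as background. The spread between replicates and the depth are therefore unknown, and differences between TC-32 and TC-71 were not tested. With 1 line for each stage of treatment, line and stage cannot be told apart. The lists of TC-32 were the longer ones for SMC1 (32720 against 18264 peaks) and H3K27ac (36355 against 26334 domains), so counts that differ between the lines are also given from lists of equal length.

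Replication-dependent histone genes encode the H2A, H2B, H3 and H4 proteins of the nucleosome core and the linker histone H1. They are transcribed in S phase, when DNA is copied, from dense clusters that gather at a nuclear structure called the histone locus body, and their messages end in a stem-loop instead of a poly(A) tail. H3K27ac, acetylation of lysine 27 of histone H3, marks active promoters and enhancers. SMC1 is part of cohesin, the ring-shaped complex that holds chromatin loops and sister chromatids. BORIS, encoded by CTCFL, is a germ-line relative of CTCF, the factor at which cohesin often halts.

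In the order of RefSeq genes on chromosome 6 (GRCh38.p14), 53 protein-coding histone genes fell into 3 groups, taken as runs with at most 3 other genes between neighbours. The first group ran from H1-1 to H4C8 with 32 genes, 5 of them for H1, 4 for H2A, 8 for H2B, 7 for H3 and 8 for H4. HFE, the hemochromatosis gene, was the other protein-coding gene inside it. The second group ran from H2BC11 to H2AC12 with 5 genes, for H2A (2), H2B (2) and H4 (1), and held no H1 or H3 gene (0). The third group ran from H2BC13 to H2BC17 with 16 genes, 1 for H1, 5 for H2A, 4 for H2B, 3 for H3 and 3 for H4. The windows follow each other in the same order, but the gene table is of another build than the peaks, so no gene was placed on a domain and no domain is named after a gene here. A further pair, H2AC1 and H2BC1, lay before the first group. Head-to-head neighbours, transcribed away from each other, numbered 14 in the 3 groups among genes of known strand. Of these, 8 joined an H2A gene to an H2B gene, such as H2BC4 with H2AC6 and H2AC17 with H2BC17. Strand was taken from the promoters, which were missing for H2AC12, H3C11, H3C12, H4C1 and H4C3, so pairs with these genes could not be counted.

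Promoters are shown for 1 gene of each histone type with the short motifs that were searched. The 250 bases before the start site were taken from RefSeq (GRCh38.p14, chromosome 6), leaving out transcribed bases. They lie at chr6:26017788-26018037 on the minus strand for H1-1, chr6:26033619-26033868 on the minus strand for H2AC4, chr6:26043714-26043963 on the minus strand for H2BC3, chr6:26020201-26020450 on the plus strand for H3C1 and chr6:26027284-26027533 on the minus strand for H4C2. These positions are not comparable with the hg19 positions of the peaks. Each is written 5′ to 3′ with capitals marking matches on either strand to CCAAT, the TATA box TATAAA, the octamer ATTTGCAT and the H1 box AAACACA.
H1-1: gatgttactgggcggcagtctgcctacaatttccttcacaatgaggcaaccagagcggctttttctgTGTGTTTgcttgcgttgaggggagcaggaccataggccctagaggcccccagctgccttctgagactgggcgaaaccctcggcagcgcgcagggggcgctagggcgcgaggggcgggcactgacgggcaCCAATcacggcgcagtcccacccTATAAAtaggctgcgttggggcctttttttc
H2AC4: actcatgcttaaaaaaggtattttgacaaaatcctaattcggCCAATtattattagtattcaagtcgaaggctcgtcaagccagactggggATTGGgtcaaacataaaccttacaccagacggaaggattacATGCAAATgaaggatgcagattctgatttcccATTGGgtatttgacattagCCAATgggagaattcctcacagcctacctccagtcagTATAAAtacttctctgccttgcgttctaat
H2BC3: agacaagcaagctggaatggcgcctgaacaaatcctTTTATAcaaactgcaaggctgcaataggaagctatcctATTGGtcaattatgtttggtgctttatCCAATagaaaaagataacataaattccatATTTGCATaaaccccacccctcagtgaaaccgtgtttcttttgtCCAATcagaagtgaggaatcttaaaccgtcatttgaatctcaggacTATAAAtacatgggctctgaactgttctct
H3C1: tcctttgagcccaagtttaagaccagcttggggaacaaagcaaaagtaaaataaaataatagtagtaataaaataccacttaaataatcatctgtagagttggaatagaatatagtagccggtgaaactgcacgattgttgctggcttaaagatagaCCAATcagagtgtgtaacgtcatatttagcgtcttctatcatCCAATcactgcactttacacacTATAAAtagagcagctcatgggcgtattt
H4C2: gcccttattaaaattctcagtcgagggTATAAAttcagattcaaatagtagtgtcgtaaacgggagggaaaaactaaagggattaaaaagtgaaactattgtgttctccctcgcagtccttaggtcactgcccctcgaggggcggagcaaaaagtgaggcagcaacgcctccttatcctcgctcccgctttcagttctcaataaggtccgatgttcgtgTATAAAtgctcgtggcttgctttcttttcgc

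The promoters of the histone types differed more in CCAAT, the octamer and the H1 box than in TATAAA. The tables gave 52 promoters for 48 of the 53 genes, all but H2AC12, H3C11, H3C12, H4C1 and H4C3, and no promoter (0) had matches of different motifs that overlapped. CCAAT was present in all H1 (6 of 6), H2A (10 of 10), H2B (16 of 16) and H3 (10 of 10) promoters and in 3 of 10 H4 promoters, against 32.0% of all 34961 promoters of the same length. The octamer, the site of OCT1 in H2B promoters, was found in 12 of 16 H2B and 8 of 10 H2A promoters, 1 of 10 H3 promoters and none for H1 or H4 (0 each), against 1.63% of all promoters. The H1 box was present in 6 of 6 H1 promoters and in 0 of the other types, against 4.82% of all. TATAAA was present in 34 of the 52 (65.4%), against 10.7% of all. In H2AC4 and H2BC3 the octamer stood at similar distances, from -118 to -111 on the reverse strand and from -120 to -113 on the forward strand, counted back from the start site. These genes did not stand for their types. In H2B promoters the 12 octamer matches began at a median of -49 (-45 to -149). The 8 matches in H2A promoters began at a median of -161 (-98 to -208). In 9 pairs of a minus-strand and a plus-strand promoter the searched bases overlapped, by 193 to 247 bases, so a match there counts for both genes. Of these, 8 were the head-to-head H2A and H2B neighbours. The other was H3C4 with H2BC7, between which H2AC7 lies. H3C4 is also the H3 gene whose promoter held the octamer, and whether that match lies in the shared bases was not checked. These matches describe letters and were not tested as binding sites.

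Acetylation covered a large part of the first and the third window in both lines and fell off sharply between them. In the first window 55.1% of bases lay in an H3K27ac domain in TC-32 (165 kb of 300 kb) and 43.2% in TC-71 (130 kb). In the third window the shares were 39.7% in TC-32 (59.5 kb of 150 kb) and 27.4% in TC-71 (41 kb). The second window was the least covered, at 15.7% in TC-32 (15.7 kb of 100 kb) and 18.0% in TC-71 (18.0 kb), and the only one of the 3 where TC-71 covered more. Over chromosomes 1 to 22 and X the shares were 2.15% and 1.41%.

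The stretches beside and between the windows were far less covered, between 0.858% and 4.44%. From 26.30 to 27.05 Mb, domains covered 3.61% of bases in TC-32 and 4.44% in TC-71. From 27.15 to 27.75 Mb, they covered 0.858% in TC-32 and 2.67% in TC-71. The flanks from 25.70 to 26.00 Mb and from 27.90 to 28.20 Mb were covered to 1.23% and 2.1% by TC-32 domains, whereas those of TC-71 covered 1.95% and 3.96%. In each of these 4 stretches TC-71 covered more than TC-32, the reverse of the first and the third window. The bar chart of coverage shows these steps.

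**Figure D1:**
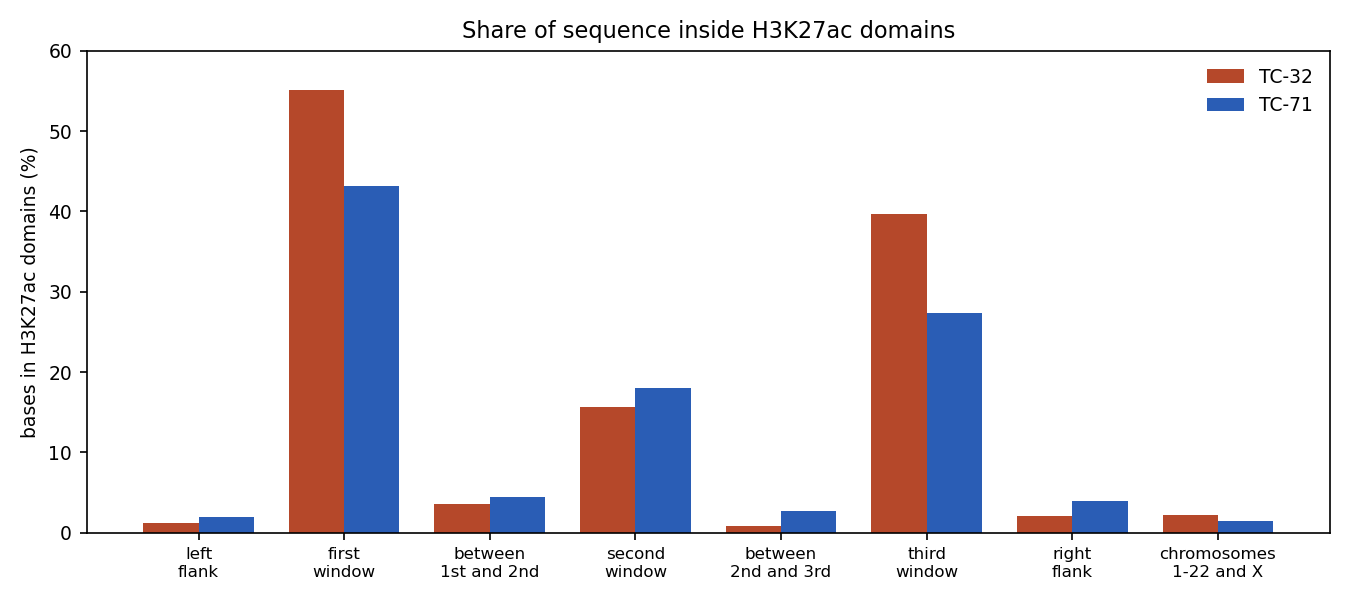
Bars give the percentage of bases inside H3K27ac domains for each window, the stretches beside and between the windows, and chromosomes 1 to 22 and X, in TC-32 (red) and TC-71 (blue). The first and the third window stand highest, with 55.1% and 39.7% for TC-32, with 43.2% and 27.4% for TC-71, and the neighbouring stretches stay below 5%.

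When domains within 12500 bp of each other were joined and ranked by length times fold enrichment over input, which is the measure that led to this choice of windows, the first window held the cluster ranked 2 of 22370 in TC-32 and 1 of 16831 in TC-71. The TC-32 cluster spanned 199 kb (26087378 to 26286692) with 26 domains, of which 62.1% was acetylated. The TC-71 cluster spanned 121 kb (26086523 to 26207441) with 8 domains and was 75.3% acetylated. To its left a separate cluster of 52.3 kb in TC-32 (26019768 to 26072076) ranked 48, and in TC-71 the same stretch was divided into clusters of 15.4 kb and 20.6 kb ranked 124 and 264. The third window formed 1 cluster of 99.9 kb in TC-32 (27774587 to 27874450, rank 16) and 3 in TC-71, the widest of 48.9 kb (27759616 to 27808491, rank 38). In the second window the main cluster was 21.8 kb in TC-32 (rank 528) and 21.0 kb in TC-71 (rank 143).

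Within the first window the lines shared a layout of wide domains but drew their borders differently. TC-71 listed 1 domain of 48.4 kb (26118190 to 26166606, fold 7.36 over input), the widest of all 26334 domains in its list. TC-32 covered 76.3% of it with 5 domains, of which the largest was 24.5 kb (26120527 to 26145011, fold 6.31). The widest TC-32 domain of the window, 30.5 kb (26181778 to 26212290, fold 5.55), was the 16th widest of its list, and a TC-71 domain of 19.0 kb (26188482 to 26207441, fold 6.91) lay wholly inside it. At the left end, domains of 20.9 kb in TC-32 (26019768 to 26040644, fold 5.43) and 15.4 kb in TC-71 (26020343 to 26035770, fold 6.86) overlapped, and the next TC-32 domain of 17.4 kb (26041541 to 26058943, fold 5.71) was covered over 35.6% of its length in TC-71. A TC-71 domain of 6.20 kb (26053858 to 26060061, fold 7.78), the second highest of the window in TC-71 by −log10 q (30.3), overlapped its right end. A TC-32 domain of 8.23 kb (26153721 to 26161955, fold 5.81) lay wholly inside the 48.4 kb domain of TC-71.

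The right part of the first window carried narrower domains, several of them with little or no cover in TC-71. TC-32 had a domain of 5.39 kb (26214070 to 26219462, fold 4.30) with no TC-71 domain on it, and one of 8.23 kb (26248227 to 26256454, fold 4.34) that TC-71 covered over 33.3%. A TC-32 domain of 6.44 kb (26270076 to 26276517, fold 6.42) was covered over 22%. TC-32 also had a domain of 3.41 kb (26222238 to 26225650, fold 7.05), its highest fold in the windows, of which TC-71 covered 46.2%. The rightmost domain was alike in extent in both lines, 2.42 kb in TC-32 (26284273 to 26286692, fold 6.46) and 2.39 kb in TC-71 (26284339 to 26286730, fold 9.39). It had the highest −log10 q of all window domains in each line, 33.2 in TC-32 and 45.3 in TC-71, and ranked 261 in the TC-71 list. A stretch of 14.4 kb free of domains in both lines (26072077 to 26086522) separated the left block from the rest.

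**Figure D2:**
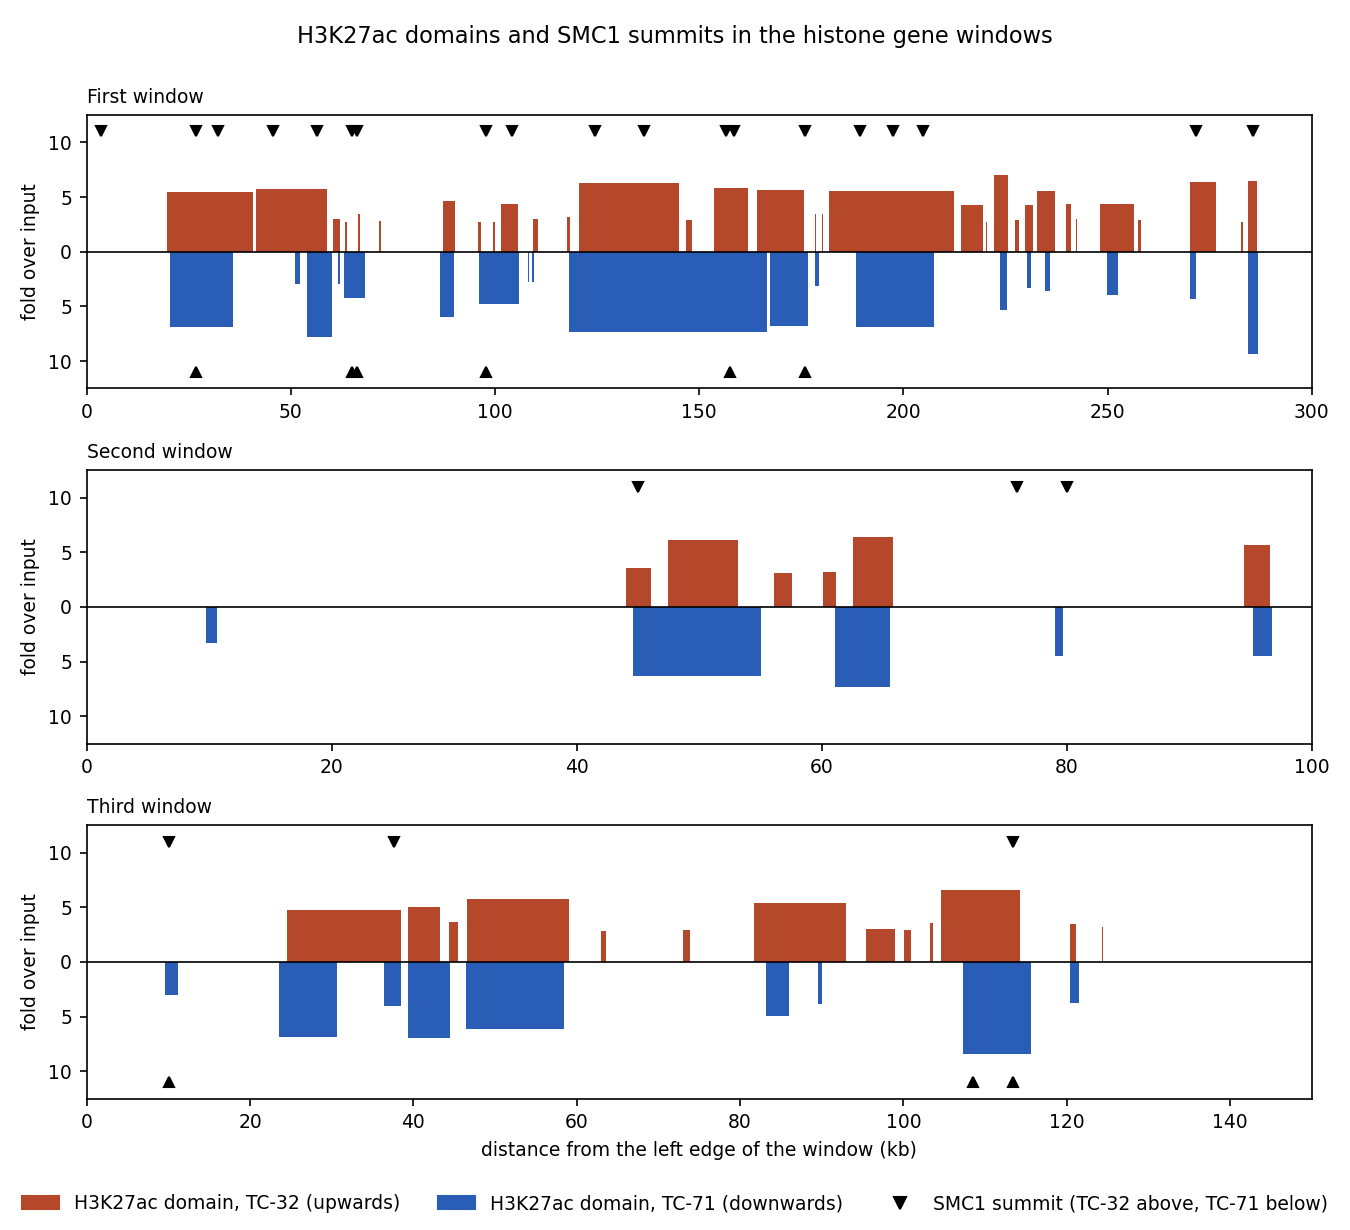
Each panel is 1 window, with distance from its left edge in kb on the x axis. Bars are H3K27ac domains drawn to width, with the fold over input as height (TC-32 upwards in red, TC-71 downwards in blue), and triangles are SMC1 summits (TC-32 above, TC-71 below). The 48.4 kb domain of TC-71 faces several TC-32 domains, and TC-32 has 25 SMC1 peaks against 9 in TC-71.

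In the second window most acetylation lay in a short core in both lines. It held domains of 5.72 kb (27097446 to 27103163, fold 6.11) and 3.28 kb (27112538 to 27115817, fold 6.35) in TC-32. In TC-71 the corresponding domains were 10.4 kb (27094582 to 27105007, fold 6.36) and 4.49 kb (27111073 to 27115563, fold 7.30). Both TC-71 domains were wider than their TC-32 counterparts. TC-32 had further short domains, of 2.04 kb (27093997 to 27096038, fold 3.51) at the left border of the core and of 1.06 kb (27110132 to 27111187, fold 3.15) within it. A domain of 1.48 kb within the core (27106089 to 27107569, fold 3.07) was listed in TC-32 alone. To the left of this core 33.4 kb (27060619 to 27093996) were free of domains in both lines, and to its right 13.2 kb (27115818 to 27129039). A domain near the right edge was listed in both lines, at 2.08 kb in TC-32 (27144472 to 27146554, fold 5.63) and 1.60 kb in TC-71 (27145187 to 27146782, fold 4.49). TC-71 alone had 2 short ones, of 0.837 kb (27059782 to 27060618, fold 3.32) and 0.689 kb (27129040 to 27129728, fold 4.46).

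In the third window acetylation of TC-71 lay in a left, a middle and a right block. Between the middle and the right block 17.2 kb were free of TC-71 domains (27840096 to 27857263). TC-32 had narrower domains there, the widest of 3.56 kb (27845391 to 27848946, fold 3.06), which was listed in TC-32 alone. Joined within 5 kb, the middle and the right block of TC-32 formed 1 cluster of 32.5 kb (27831761 to 27864249). At the left TC-32 had a domain of 13.9 kb (27774587 to 27788494, fold 4.74), on which TC-71 had domains of 7.17 kb (27773497 to 27780667, fold 6.87) and 2.13 kb (27786365 to 27788493, fold 4.05). Next to it were domains of 3.92 kb in TC-32 (27789308 to 27793225, fold 4.99) and 5.25 kb in TC-71 (27789291 to 27794542, fold 6.92). The last pair of the left block was nearly congruent, with 12.6 kb in TC-32 (27796518 to 27809079, fold 5.72) and 12.1 kb in TC-71 (27796387 to 27808491, fold 6.10). The middle block was the most unequal, with 11.3 kb in TC-32 (27831761 to 27843028, fold 5.41), of which TC-71 covered 30.4%, mainly by a domain of 2.87 kb (27833144 to 27836008, fold 4.93). In the right block TC-32 had 9.67 kb (27854584 to 27864249, fold 6.61) and TC-71 had 8.34 kb (27857264 to 27865602, fold 8.44). These right-hand domains had the highest −log10 q of the window in both lines, 30.1 and 33.8.

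The members ranged widely in width. Their number was 51 in TC-32 and 34 in TC-71, and with H3K27ac lists of equal length it was 32 and 34. TC-32 domains ran from 193 bp to 30.5 kb, with 19 of 51 under 1 kb and 8 of at least 10 kb. TC-71 domains ran from 177 bp to 48.4 kb, with 9 of 34 under 1 kb and 5 of at least 10 kb. Domains under 1 kb were also common in the whole lists. By width, 1 kb lay between percentiles 38.5 and 41.8 in TC-32 and between 40.7 and 45.7 in TC-71. In the whole lists 399 of 36355 TC-32 domains (1.10%) and 168 of 26334 TC-71 domains (0.638%) were of at least 10 kb. The median width of the members was 1634 bp in TC-32 and 2260 bp in TC-71, against 1269 bp and 1146 bp over all domains. Widths were not recomputed with lists of equal length, so they are not compared between the lines.

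Fold enrichment set the members less apart than width did. In TC-32 the median fold of the window domains was 3.54, beside 3.53 over its whole list. In TC-71 it was 4.47, beside 3.81. Weighted by length, it was 5.34 in TC-32, beside 4.77 over all domains, and 6.52 in TC-71, beside 5.07. By −log10 q 16 of 51 TC-32 members and 13 of 34 TC-71 members lay in the highest quartile of their list. The 48.4 kb domain of TC-71 stood at percentile 94.2 of its list by fold and the 30.5 kb domain of TC-32 at percentile 82.9.

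**Figure D3:**
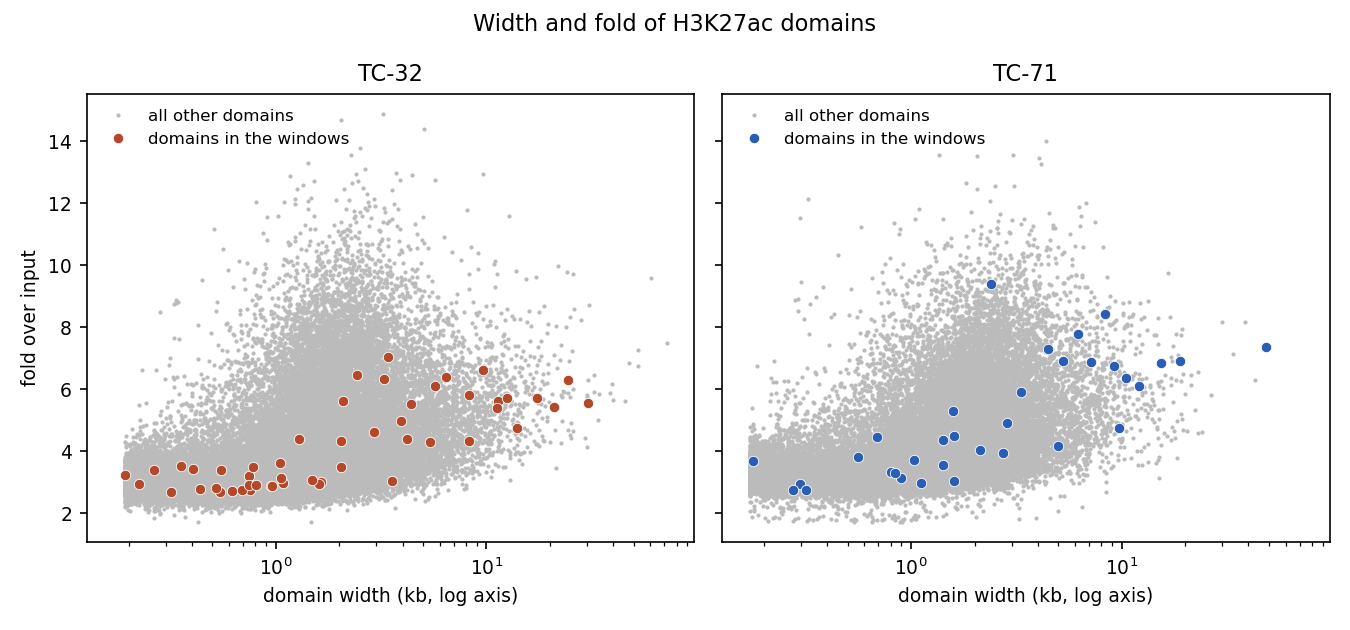
Each point is 1 H3K27ac domain, with width in kb on a log axis and fold over input on the y axis, in TC-32 (left) and TC-71 (right). Coloured points are the 51 and 34 domains in the windows and grey points all others. The widest window domain is the widest of all in TC-71, at 48.4 kb and a fold of 7.36, and the 16th widest in TC-32, at 30.5 kb and a fold of 5.55.

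Most acetylated sequence of TC-71 in the windows was also acetylated in TC-32. Over all 3 windows 153 kb were covered in both lines, 87.7 kb in TC-32 alone, 36.0 kb in TC-71 alone and 274 kb in neither. The common bases made up 63.5% of the TC-32 and 80.9% of the TC-71 acetylated bases, against 42.5% and 65.1% over all chromosomes. By window the TC-32 share was 64.0%, 74.6% and 59.4% and the TC-71 share 81.5%, 64.8% and 86.2%. The second window was again the exception, with the larger share on the TC-32 side. By domains, 36 of the 51 in TC-32 overlapped a TC-71 domain (70.6%, exact Clopper-Pearson 95% interval 56.2 to 82.5%), against 47.1% of the whole list. In TC-71 30 of 34 overlapped a TC-32 domain (88.2%, 72.5 to 96.7%), against 67.3%. The windows had been picked as acetylated in both lines, so nothing is read from these shares. Domains listed in 1 line were small, with a median width of 750 bp for the 15 of TC-32 and 763 bp for the 4 of TC-71. A narrow domain has less room to overlap the other list, and these widths were not computed over the whole lists, so nothing is read from them.

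Cohesin was not used to choose the windows. SMC1 peaks were more numerous in TC-32, with 19, 3 and 3 in the first, the second and the third window, than in TC-71, with 6, 0 and 3. This difference was not seen with SMC1 lists of equal length, which kept 7 TC-32 and 9 TC-71 peaks in the windows. Per 100 kb of window there were 4.55 SMC1 peaks in TC-32, beside 1.08 over all chromosomes, and 1.64 in TC-71, beside 0.602. Per 100 kb of acetylated sequence the order was the other way round, with 7.49 in the windows against 13.0 genome-wide in TC-32 and 4.77 against 5.82 in TC-71. Per 100 kb of sequence outside domains TC-32 had 2.26 in the windows against 0.816 genome-wide, and TC-71 had 0 against 0.527.

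Most of these SMC1 peaks were weak for their list. In TC-32 their median −log10 q was 8.14, beside 17.2 over the whole list, and their median fold over input 4.42, beside 6.48. In TC-71 the median −log10 q was 9.15, beside 13.6, and the median fold 4.77, beside 6.16. Peaks inside domains were weaker over the whole lists too. All 9 TC-71 members lay in a domain, and such peaks of its whole list had medians of 12.0 and 5.50. The 18 TC-32 members in a domain had medians of 7.58 and 4.12, beside 9.40 and 4.85 for such peaks of its list. In TC-32 20 of 25 and in TC-71 7 of 9 lay below the list's median −log10 q, while 4 and 2 lay in the highest quartile. Those listed in TC-32 alone inside a domain, 15 peaks, had a median −log10 q of 6.97, close to the 6.65 of the 5940 such peaks of the whole list.

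SMC1 peaks in the windows mostly lay inside acetylated domains. In TC-32 18 of 25 did (72.0%, 50.6 to 87.9%), beside 25.9% of the whole list and with 43.7% of window bases acetylated. In TC-71 all 9 did (100%, 66.4 to 100%), beside 13.6% and with 34.3% of bases acetylated. The windows were picked as acetylated, so a higher share than in the whole list follows from the choice and nothing is read from it. The share differed by rank over the whole TC-32 list, at 35.9% of the peaks below its median −log10 q and 15.9% of those above. Of the members 16 of 20 below the median and 2 of 5 above it lay in a domain, which is given as a description for the same reason. Of the acetylated domains, 12 of 51 held an SMC1 peak in TC-32 (23.5%, 12.8 to 37.5%), against 19.1% of the whole list, and 7 of 34 in TC-71 (20.6%, 8.70 to 37.9%), against 8.84%. The intervals cover counting error only. Domains with SMC1 were wide, with a median of 8950 bp against 1056 bp without SMC1 in TC-32, and 9172 bp against 1577 bp in TC-71. A wider domain has more room to hold a peak, and these widths were not computed over the whole lists, so nothing is read from them.

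Between the lines 7 SMC1 sites were common, 18 were listed in TC-32 alone and 2 in TC-71 alone. The common sites were 7 of 25 in TC-32 (28.0%, 12.1 to 49.4%), against 50.3% of the whole list. In TC-71 they were 7 of 9 (77.8%, 40 to 97.2%), against 90.3%. Split by rank, 4 of 20 TC-32 members below the median −log10 q were common (20%, 5.73 to 43.7%) against 22.2% of all peaks there. Above the median 3 of 5 were (60%, 14.7 to 94.7%) against 78.3%. With lists of equal length 5 of 7 TC-32 members (71.4%, 29.0 to 96.3%) and 5 of 9 TC-71 members (55.6%, 21.2 to 86.3%) were common, against 74.7% and 74.9%.

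In TC-32 the 3 cohesin sites of highest fold had their summits outside acetylated domains. In TC-71 the same sites lay inside a domain, as did all 9 SMC1 peaks of that line in the windows. Higher folds outside domains were also seen over the whole TC-32 list, with a median of 7.18 outside and 4.85 inside. In the first window the highest folds were at 26097543 to 26097886 (15.6 in TC-32 and 7.19 in TC-71) and 26066205 to 26066448 (12.1 and 9.35). Their summits in the 2 lines were 0 and 6 bp apart. The TC-32 summits lay 1158 bp and 74 bp from the nearest TC-32 domain, which the peak of the latter site overlapped, while in TC-71 both lay inside a domain. A companion at 26064849 to 26065047 had folds of 6.30 and 3.95, with its TC-32 summit 1100 bp from a domain. These sites lie on either side of the 14.4 kb stretch that was free of domains in both lines.

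In the third window the site at 27759861 to 27760402 had a fold of 13.4 in TC-32, at percentile 95.4 of its list by −log10 q, and 4.77 in TC-71, at percentile 43.7. Its TC-32 summit was 14541 bp from the nearest TC-32 domain, to the left of all acetylation of that window, whereas TC-71 listed a domain of 1.59 kb over it (27759616 to 27761205, fold 3.05). The other common sites had lower folds in TC-32 but not throughout in TC-71, with folds of 3.68 and 6.0 at 26026588 to 26026767, 5.55 and 5.83 at 26175736 to 26175944, and 5.80 and 4.11 at 27863346 to 27863559 in TC-32 and TC-71. The site at 26175736 lay 293 bp past a domain border in TC-32.

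By −log10 q the sites listed in 1 line were led in TC-32 by 27094885 to 27095175 (−log10 q 38.5, fold 10.1) at the left border of the acetylated core of the second window, inside a domain of both lines. It was followed by 27125805 to 27126054 (−log10 q 26.7, fold 7.55), also in the second window but 10093 bp from a TC-32 domain, and by 26204587 to 26205002 (−log10 q 13.1, fold 5.26) inside the 30.5 kb domain. By fold the site at 27787591 to 27787737 in the third window (5.66, −log10 q 9.29) came before the last of these. The second window was the only one of the 3 in which TC-71 listed no SMC1 peak (0 of 9). It spans 100 kb, and TC-71 had 0.602 SMC1 peaks per 100 kb over all chromosomes, so a count of 0 is near the background. The TC-71 sites not listed in TC-32 were 26157493 to 26157798 (fold 3.38), inside the 48.4 kb domain, and 27858479 to 27858604 (fold 3.84). They stood at percentiles 3.31 and 4.60 of the TC-71 list.

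**Figure D4:**
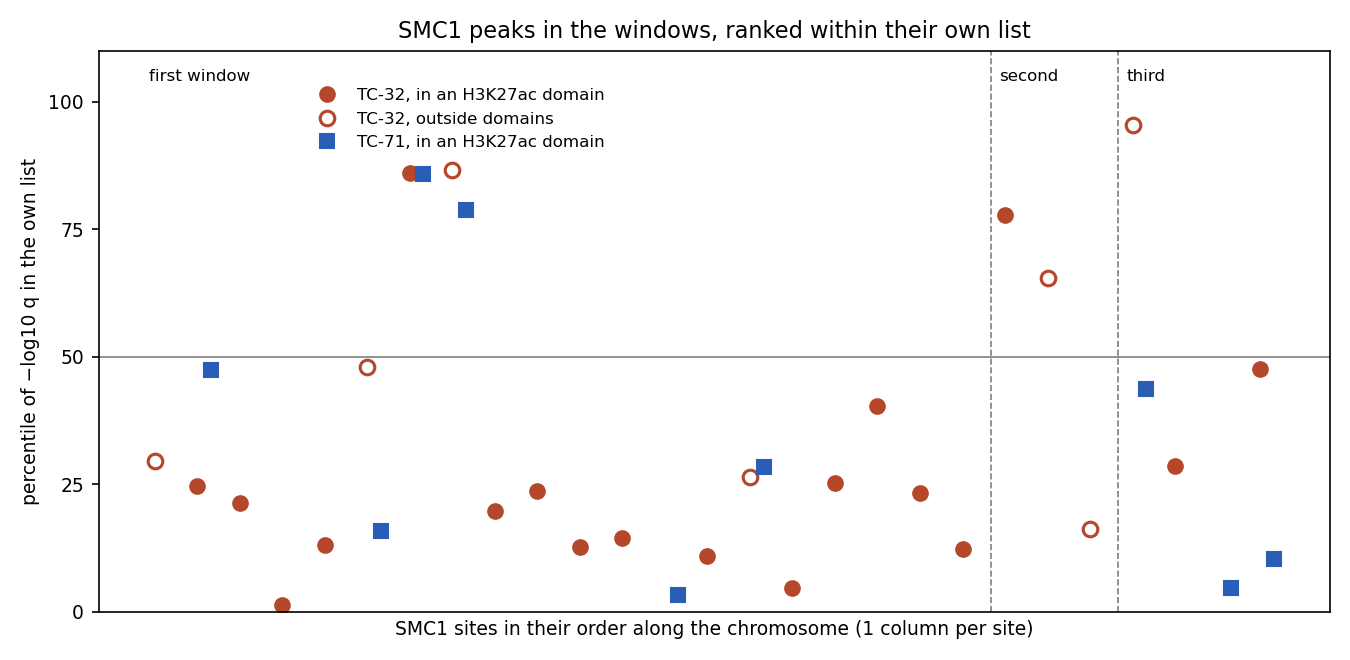
Each column is 1 of the 27 SMC1 sites in chromosome order, and the y axis is the percentile of its −log10 q within its own list (TC-32 circles, TC-71 squares, filled where the peak overlaps an H3K27ac domain of that line and open where it does not). Of the 25 TC-32 points 20 lie below the median of their list, and the highest points are at 95.4 in the third window and 86.6 and 86.1 in the first.

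BORIS was listed in none of the windows in either line (0 and 0 peaks). The TC-32 BORIS list has 6 peaks and none on chromosome 6 (0). Of the 534 BORIS peaks of TC-71 32 were on chromosome 6, and at the mean density of the list 0.0967 would fall in 550 kb, so a count of 0 is near the background. The nearest TC-71 peak lay 69596 bp to the right of the second window (27219597 to 27219709, fold 5.77). The nearest to the first window was at 26924717 to 26924900 (fold 6.66), 0.625 Mb away, and the nearest to the third at 28367475 to 28367649 (fold 8.90), 0.467 Mb away.

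Some strong cohesin peaks lay just outside the window borders. SMC1 was listed 3.00 kb to the left of the second window with a fold of 12.1 in TC-32 (27046612 to 27047002) and at 3.04 kb with 5.64 in TC-71. It was listed 9.47 kb to the left of the third window with 12.2 in TC-32 (27740286 to 27740528) and at 9.51 kb with 9.30 in TC-71. The H3K27ac domain nearest outside the first window was 6.31 kb to its left in TC-32 (25992135 to 25993686, fold 4.80), against 19.8 kb from the edge to the first domain inside. To the right of the third window the next domain was 148 kb away in both lines.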

How the data were processed

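The files are peak lists that the authors deposited, 1 per line and antibody. Per the submitters' processing notes, MACS2 2.1.1, STAR 2.5.1b, deepTools 2.2.4, SAMtools 1.3.1 and Picard were used with hg19. How replicates were combined is not given in the sources used here. Each deposited peak carries a score (not used further), a fold enrichment over input, and the −log10 of its p and q values. SMC1 and BORIS are narrow peaks with summits and H3K27ac domains are broad. The authors' values were used to describe and rank peaks within a list. The depth behind each list is not known.

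Peaks listed with several summits were counted once, with the values of the summit of highest −log10 q. Chromosomes 1 to 22 and X were used, with hg19 lengths from GenomeInfoDb 1.38.1, and positions are counted from 1. Overlap meant at least 1 bp. Named peaks were, by a rule, the 5 domains per line and window with the highest −log10 q, all SMC1 sites common to both lines, the 3 SMC1 peaks of each line alone with the highest −log10 q and any BORIS peak. Wide or unequal domains were also named after their values were seen. The members and lists were chosen with earlier results of these data known. Motifs were searched in the 250 bases upstream of RefSeq start sites. The promoter shown for a type is the first in symbol order holding AAACACA for H1, ATTTGCAT for H2B, ATTTGCAT and CCAAT for H2A, CCAAT and TATAAA for H3 and TATAAA for H4, where the letters for H2A, H3 and H4 were settled after matches were counted. Intervals came from scipy 1.17.1, tables from pandas 2.3.3 and numpy 2.4.6, and plots from matplotlib 3.10.9, under Python 3.11.15. The split of SMC1 lists at the median −log10 q was chosen after seeing the data. The overlap code was tested on simulated intervals and gave 0 wrong values in 20 runs.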

Additional observations from a re-analysis of the deposited data

How the results depend on the processing

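No paired analysis was possible because no list gives values for single samples, and for the same reason no replicate could be left out. Among 58 values under other settings, 27 left the binomial interval of the share given above or differed from a count by over 1.5 times, and 31 did not. For shares of bases these intervals treat each base as independent, so small shifts leave them. Restricted to domains with −log10 q from 5 upwards, the acetylated share of the first, the second and the third window was 51.4%, 13.1% and 34.7% in TC-32, and TC-71 had 41.4% in the first and 26.3% in the third. With lists of equal length it was 51.6%, 14.2% and 35.7% in TC-32. Merging domains within 1 kb gave TC-32 55.9% for the first and 40.8% for the third window, and TC-71 43.7% and 27.9%. The order of the windows and of the lines stayed the same in these settings. The number of TC-32 domains fell to 27 with the stricter q, beside 25 in TC-71, and to 32 with equal lengths, where TC-71 kept 34, so that the order of the lines changed. The bases common to both lines were 66.0%, 66.8% and 63.1% of TC-32 and 79.7%, 78.8% and 80.8% of TC-71 under the stricter q, equal lengths and merging. Equal lengths left 7 SMC1 peaks in TC-32, of which 71.4% were common, because the lowest-ranked peaks are removed by construction. With the stricter q in both lists, 100% of the 7 remaining TC-71 SMC1 peaks were common. Widening the windows by 100 kb added 1 TC-71 BORIS peak. Stitching at 5 kb put the highest TC-32 cluster at rank 5, and ranking by covered length put the TC-32 cluster at rank 1 and the TC-71 cluster at rank 2.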
